A study of Homo sapiens with 24 samples.

Results

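The CXCL and CCL chemokine genes examined here are CXCL1, CXCL2, CXCL3, CXCL5, CXCL6, CXCL8, CXCL12, CCL2, CCL7 and CCL20, chosen by symbol. All 10 were found once each among the 62703 gene identifiers counted in every library, and 7 of the 10 passed the filter on low counts. RNA-seq was carried out on T/C-28a2 cells, an immortalised human chondrocyte line, in 24 libraries that fall into 6 groups of 4 described as biological replicates. The libraries labelled WT Ctr and WT Sor come from unmodified cells, those labelled WNK2- Ctr and WNK2- Sor from cells with a CRISPR deletion of exon 2 of the kinase gene WNK2, and those labelled WNK2 trans Ctr and WNK2 trans Sor from cells transfected with a plasmid for wild-type WNK2. Ctr stands for isotonic media and Sor for media with 100 mM sorbitol, which draws water out of cells, for 7 days, all with 2% serum. The deletion cells descend from single sorted clones, so genotype and clone cannot be told apart. Transfection with a lipid reagent preceded the change of media by 48 hours, and the groups without the plasmid are untransfected cells, so the plasmid and the transfection itself cannot be told apart either.

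Chemokines are small secreted proteins that draw leukocytes along a gradient. CXCL1, CXCL2, CXCL3, CXCL5, CXCL6 and CXCL8 carry the ELR motif and attract neutrophils through the receptor CXCR2, and CXCL6 and CXCL8 also act on CXCR1. CCL2 and CCL7 attract monocytes through CCR2, CCL20 attracts CCR6-bearing lymphocytes and dendritic cells, and CXCL12 is a constitutively made stromal chemokine that signals through CXCR4. Interleukin-1 and TNF raise the ELR chemokines and CCL2 in chondrocytes through NF-kB and AP-1 sites near their promoters, and several of these transcripts are short-lived because of AU-rich elements. In osteoarthritic joints such chemokines are made by both cartilage and synovium.

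Total counts ran from 14153002 to 25664619 per library, and the libraries labelled WNK2- were the deepest, with group medians of 21051909.5 and 20203563.5 against 16176287.5 to 17169291.5 in the other groups. WNK2 itself was counted 1217 to 2568 times in the libraries labelled WT Ctr but 163 to 290 times in those labelled WNK2 trans Ctr, against what that label says. It was counted 266 to 314 times in the libraries labelled WT Sor, 2237 to 3739 times in WNK2 trans Sor and in the deletion cells 440 to 501 times without and 322 to 503 times with sorbitol. Reads were counted over the whole gene, which does not check the loss of exon 2. Every direction that follows, and above all those drawn from the libraries labelled WT Ctr and WNK2 trans Ctr, therefore rests on the labels. The sorbitol labels were checked with AKR1B1, the aldose reductase that chondrocytes raise in hypertonic media: its normalized counts were 7076 to 10106 in the libraries labelled WT Ctr against 23262 to 23909 in WT Sor, 4572 to 6249.8 against 23825 to 32839 for the label WNK2 trans, and 9440.4 to 10976 against 45316 to 46576 for WNK2-. Each Sor group thus lay above its own Ctr group. Of 11 chondrocyte marker genes SOX9 was listed at 0 in every library, and their summed level was 83.3 to 158 CPM (counts scaled to the same total in each library) in the WT and WNK2 trans groups and 24.2 to 28.6 in the WNK2- groups. Of the 8 tested markers 1 was higher (HAPLN1, counted up to 2765 times) and 7 were lower in WNK2 trans Sor than in WNK2 trans Ctr (median -2.21), COL2A1 by 2.88 and ACAN by 2.36 on the log2 scale, and the counts were the same against WT Sor (median -1.86). In WNK2- Ctr and WNK2- Sor 0 were higher and 5 and 6 were lower than in the WT group of the same media. Of all tested genes 48% and 31.7% passed for WNK2 trans Sor against WNK2 trans Ctr and WT Sor. For WNK2- Ctr and WNK2- Sor against WT the shares were 42.1% and 46.3%. The part of these markers in the chemokine differences was not tested.

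The promoters of the members are shown first because the ELR genes share a sequence in them. The ELR genes lie within a single stretch of chromosome 4 (GRCh38, GENCODE 29 positions): CXCL8 at 73740506 to 73743716, CXCL6 at 73836497 to 73849064, CXCL1 at 73869393 to 73871242, CXCL5 at 73995642 to 73998779, CXCL3 at 74036589 to 74038807 and CXCL2 at 74097035 to 74099293. CCL2 (34255218 to 34257203) and CCL7 (34270221 to 34272242) are neighbours on chromosome 17, CCL20 lies on chromosome 2 (227805739 to 227817564) and CXCL12 on chromosome 10 (44370165 to 44386493). RefSeq promoter windows (GRCh38.p14) were found for 9 of the 10 genes, all but CCL2. The 120 bases before the RefSeq start site are printed 5′ to 3′ on the strand of the gene for the 5 ELR genes that were tested and for CXCL12, with capitals on matches to GGAATTTCC, a spelling of the kappaB site that NF-kB binds.
CXCL8: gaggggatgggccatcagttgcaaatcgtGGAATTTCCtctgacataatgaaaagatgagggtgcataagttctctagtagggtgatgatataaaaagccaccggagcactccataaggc
CXCL6: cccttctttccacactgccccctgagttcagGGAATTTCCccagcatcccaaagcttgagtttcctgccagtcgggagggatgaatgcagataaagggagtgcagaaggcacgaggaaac
CXCL1: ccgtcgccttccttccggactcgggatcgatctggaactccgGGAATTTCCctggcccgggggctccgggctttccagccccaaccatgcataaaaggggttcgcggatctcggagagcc
CXCL3: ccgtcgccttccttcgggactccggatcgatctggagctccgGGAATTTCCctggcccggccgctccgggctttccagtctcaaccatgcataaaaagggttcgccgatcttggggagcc
CXCL2: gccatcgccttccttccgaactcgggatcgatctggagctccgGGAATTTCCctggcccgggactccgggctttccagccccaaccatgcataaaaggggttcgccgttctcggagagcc
CXCL12: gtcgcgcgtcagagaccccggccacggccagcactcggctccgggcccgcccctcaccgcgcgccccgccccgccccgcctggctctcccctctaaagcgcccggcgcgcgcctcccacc

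The windows span chromosome 4 positions 73740449 to 73740568 for CXCL8, 73836558 to 73836677 for CXCL6, 73869273 to 73869392 for CXCL1 (all on the plus strand), 74038690 to 74038809 for CXCL3 and 74099196 to 74099315 for CXCL2 (both on the minus strand), and chromosome 10 positions 44385098 to 44385217 for CXCL12 on the minus strand. On either strand of the full 300-base windows, GGAATTTCC was present in 6 of the 9 member promoters, which are the 6 ELR genes, and in 0.461% of all 35116 promoters. It lay 77 to 91 bases before the start site in the 6. The AP-1 spelling TGANTCA was found in CXCL8 and CCL7 and in 7.71% of all promoters, TATAAA in CXCL8, CCL7 and CCL20 and in 11.5% of all, and the consensus of the tonicity-responsive enhancer in 0 of 9 and in 4.92% of all. CXCL1, CXCL2 and CXCL3 are close copies of each other in their transcripts too. Of the 50-base stretches of their GENCODE transcripts, 4.81% in CXCL1, 12.5% in CXCL2 and 6.01% in CXCL3 also occur in another member, while CXCL5, CXCL6, CXCL8, CXCL12 and the CCL genes shared 0. The counts of the first 3 genes are less certain for that reason, since reads from a shared stretch can be counted for the wrong copy or dropped. The size of that error was not measured, and the shares do not give it.

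Per kilobase of exon, CXCL1, CXCL8 and CCL2 were the main chemokine transcripts. Their mean levels over the groups spanned 13.1 to 104 CPM per kilobase for CXCL1, 6.23 to 86.4 for CXCL8 and 3.71 to 50.4 for CCL2. CXCL6 followed with 2.40 to 18.8, and CXCL2 (1.23 to 3.96), CXCL3 (0.309 to 2.72) and CXCL12 (0.217 to 1.33) were lower. The other 3 members were barely counted and did not pass the filter: CXCL5 had 0 to 8 raw counts per library, CCL7 had 0 to 11 and CCL20 had 0 to 13. Levels below are normalized counts, which are counts scaled to a common library size, as mean ± SD over 4 libraries. These are bulk cultures, in which fewer cells that make a transcript and less of it per cell cannot be told apart. Leukocytes also make several of these chemokines. The leukocyte genes TYROBP and CD3E reached at most 2 and 3 raw counts, and PTPRC at most 13. The 8 leukocyte markers summed to 6.61 to 24.9 CPM, most of it CD14 and CSF1R, with the highest median in the libraries labelled WNK2 trans Ctr (16.2 to 24.9), where CXCL8 was lowest. ITGAM, the third tested marker, moved with CXCL8 in the cells labelled WNK2 trans: it rose there by 2.23 with sorbitol (edgeR adjusted p = 3.24e-05) and was 1.18 higher in WNK2 trans Sor than in WT Sor, with 27 to 67 raw counts there. CD14 went the other way, falling by 1.96 in the first comparison and being 1.24 lower in the second. ITGAM also rose by 1.87 with sorbitol in WT cells, where CXCL8 fell. ITGAM was 1.81 and CSF1R 1.32 higher in WNK2- Ctr than in WT Ctr, where CXCL8 was lower. CD14 was 1.94 lower there, in the same direction as CXCL8. The part of these markers in the result was not tested.

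**Figure D1:**
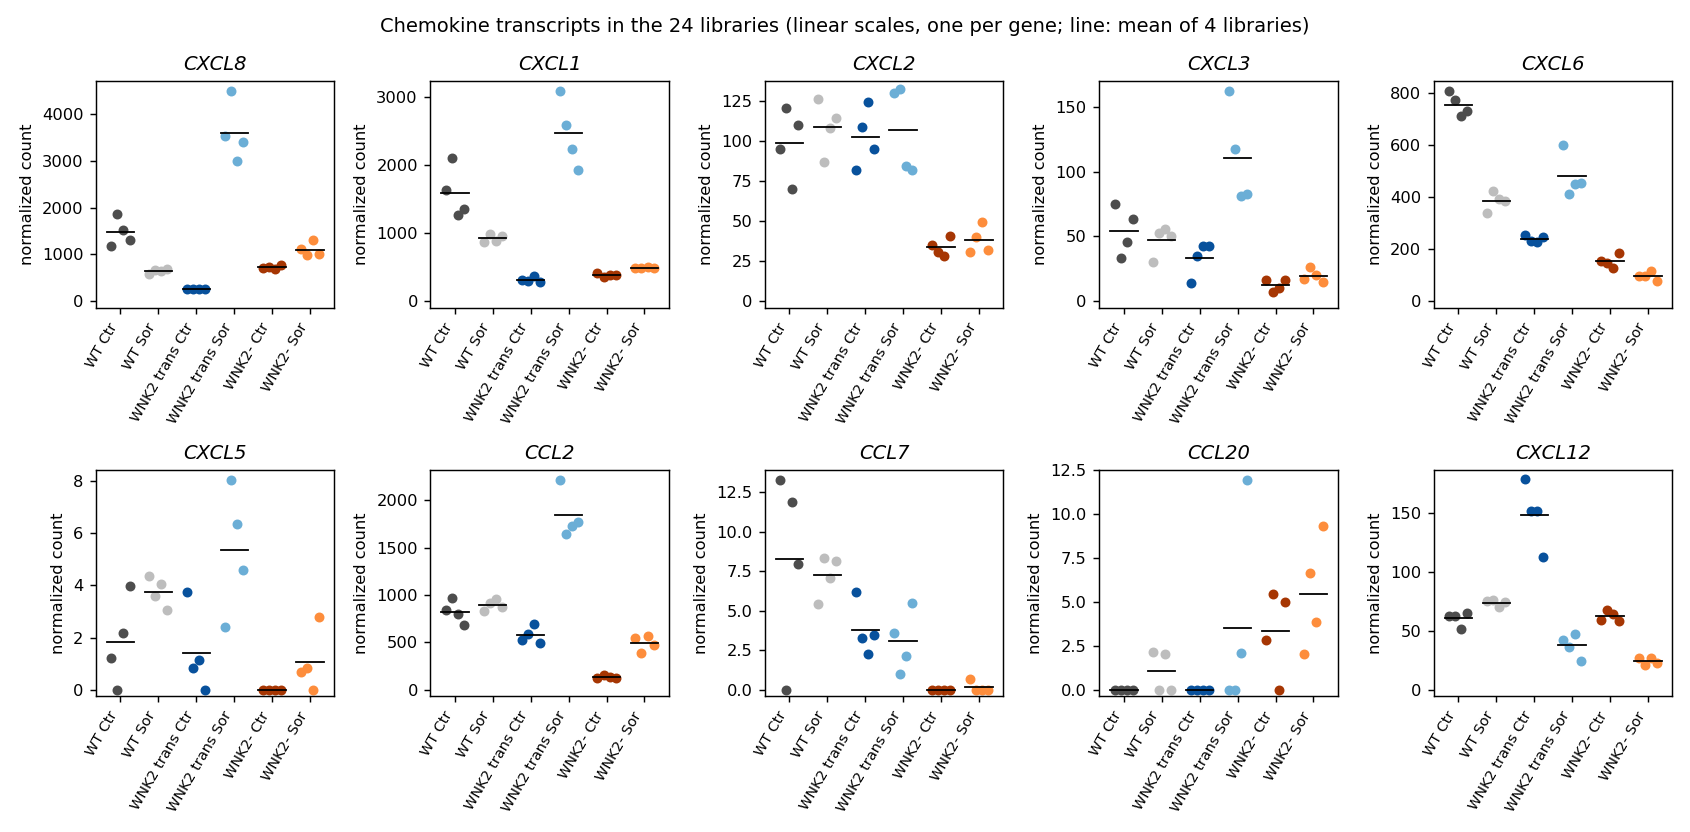
Normalized counts of the 10 chemokine genes (vertical axes, linear, 1 scale per gene) in each of the 24 libraries, arranged by labelled group; points are libraries and lines are means of 4. CXCL8 and CXCL1 were highest in the libraries labelled WNK2 trans Sor and lowest in those labelled WNK2 trans Ctr, CXCL2 fell into a high and a low level by genotype, and CXCL5, CCL7 and CCL20 stayed under 14 normalized counts.

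Between 3 and 7 of the 7 tested members passed in each comparison, with directions that depended on the gene and on the background. All tests are edgeR's quasi-likelihood test over 16600 genes with Benjamini-Hochberg adjustment and a threshold of 0.05. With sorbitol, 3 of the 7 tested members fell in WT cells (CXCL8, CXCL1 and CXCL6), in a comparison in which 24.1% of all tested genes passed. In the WNK2- cells 4 passed, CCL2 and CXCL8 rising and CXCL12 and CXCL6 falling, against 14.9% of all genes. In the cells labelled WNK2 trans 6 passed, 5 of them rising and CXCL12 falling, against 48% of all genes. Between genotypes, 6 of 7 were lower in WNK2- Ctr than in WT Ctr, where 42.1% of all genes passed, and the median difference of the 7 was -2.05 on the log2 scale beside 0.0020 for all genes. Under sorbitol all 7 passed, 6 of them lower in WNK2- Sor than in WT Sor and CXCL8 higher, where 46.3% of all genes passed and the median of the 7 was -1.25. Between the transfection labels in isotonic media 5 of 7 passed, 4 of them lower in the libraries labelled WNK2 trans Ctr and CXCL12 higher, against 12.5% of all genes. Under sorbitol 5 passed, 4 of them higher in WNK2 trans Sor than in WT Sor and CXCL12 lower, against 31.7%. Comparisons with the same WT Ctr or WT Sor libraries share those controls and are not independent of each other. The directions also depend on which isotonic group is the reference. Set beside the libraries labelled WNK2 trans Ctr in place of WT Ctr, which was not tested, CXCL8 was higher in WNK2- Ctr (729 against 260.3) and in WT Sor (641 against 260.3). CXCL1 in WNK2- Ctr overlapped WNK2 trans Ctr (383 against 311), and CXCL6 (153 against 239.6) and CCL2 (135 against 576) were still lower.

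**Figure D2:**
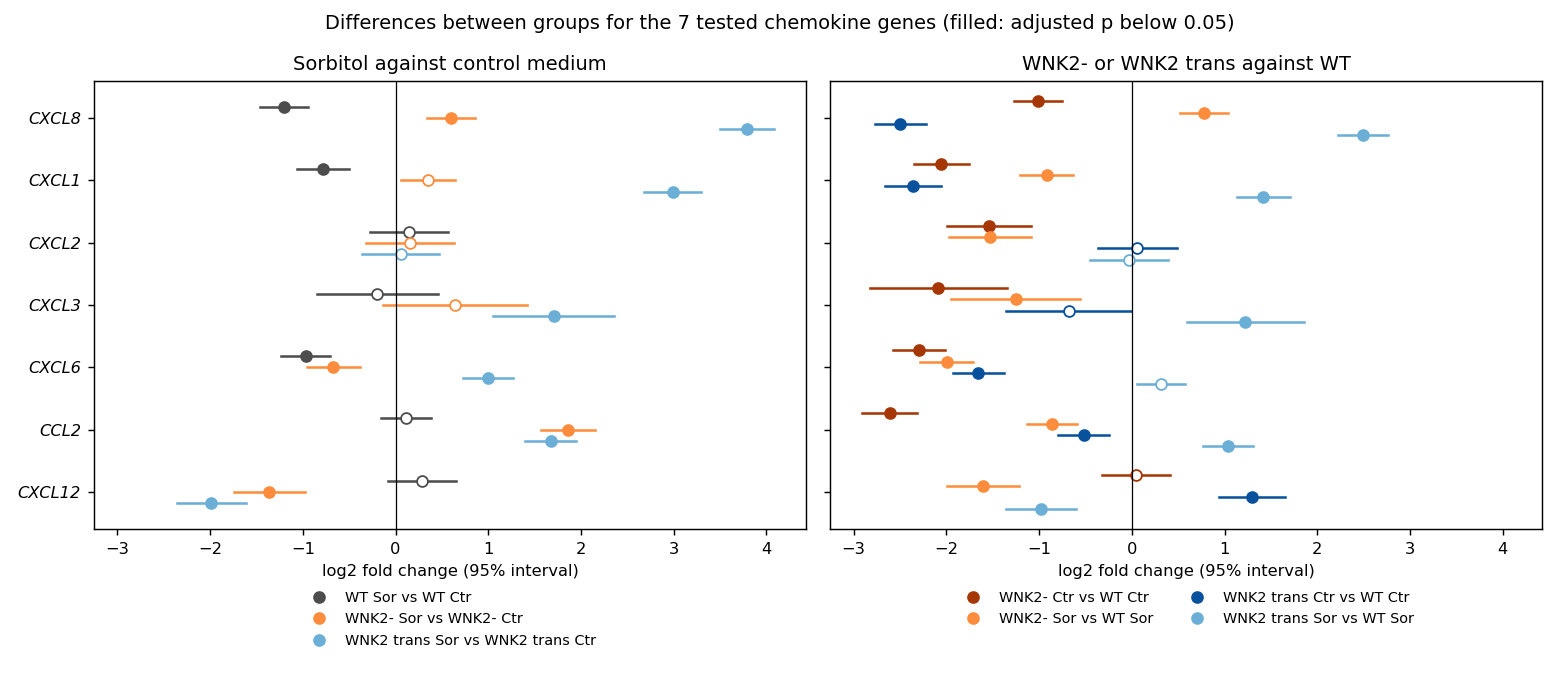
Log2 fold change (horizontal axis) with its 95% interval for the 7 tested chemokine genes, on the left for sorbitol against control media within each labelled background and on the right for WNK2- or WNK2 trans against WT in the same media; filled points have an adjusted p below 0.05. CXCL8 moved from -1.20 in WT cells to 3.79 in the cells labelled WNK2 trans, and CXCL12 moved the other way.

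CXCL8, or interleukin-8, a potent neutrophil attractant, was the most variable member. Its normalized counts were 1184, 1869.9, 1523 and 1313 in the libraries labelled WT Ctr and 581, 657, 644 and 680.0 in WT Sor. They were 257, 262, 265 and 256 in the libraries labelled WNK2 trans Ctr and 3527, 4499.9, 2999 and 3404 in WNK2 trans Sor. In the libraries labelled WNK2- Ctr they were 716, 726, 697 and 776, and in WNK2- Sor 1108, 985, 1311 and 1000.2. Every WNK2 trans Sor library lay above all other libraries and every WNK2 trans Ctr library below them, and only WT Ctr and WNK2- Sor overlapped among neighbours in the order. Sorbitol was accompanied by a fall of 1.20 on the log2 scale in WT cells (standard error 0.13, edgeR adjusted p = 2.6e-07). The cells labelled WNK2 trans showed a rise of 3.79 (standard error 0.14, edgeR adjusted p = 9.65e-17), which is 13.9-fold. In the WNK2- cells the rise was 0.60 (standard error 0.12, edgeR adjusted p = 0.00144), or 1.51-fold. This last call was lost when a change of more than 0.3 was required.

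Relative to WT cells, CXCL8 was lower in isotonic media both in WNK2- Ctr (729 ± 34.0 against 1472 ± 299.5) and in the libraries labelled WNK2 trans Ctr (260.3 ± 4.24). Under sorbitol it was higher in both, by 0.78 in WNK2- Sor (95% interval 0.52 to 1.04) and by 2.49 in WNK2 trans Sor (2.22 to 2.76), with edgeR adjusted p = 1.43e-05 and 4.99e-13. It was the one tested member that was higher in WNK2- Sor than in WT Sor. Endothelial markers moved with CXCL8 in the cells labelled WNK2 trans. CDH5, the endothelial cadherin, was 3.20 lower in WNK2 trans Ctr than in WT Ctr and rose by 5.46 with sorbitol, and KDR rose by 2.47. The 5 markers summed to 99.3 to 106 CPM in WNK2 trans Sor against 25.3 to 41.7 in its isotonic group, and to at most 67.2 in the WT and 45.7 in the WNK2- groups. Of the 4 tested, 3 rose and 0 fell with sorbitol in the cells labelled WNK2 trans, beside 48% of all tested genes that passed. Elsewhere the markers did not always move with CXCL8. In WT cells, where CXCL8 fell with sorbitol, 1 rose (PECAM1, by 0.97) and 0 fell, beside 24.1% of all genes. In WNK2- Ctr, where CXCL8 was lower than in WT Ctr, 3 were higher and 1 was lower, beside 42.1%. With sorbitol in WNK2- cells, where CXCL8 rose, 1 rose and 0 fell, beside 14.9%. In WNK2- Sor, where CXCL8 was higher than in WT Sor, 2 were higher and 1 was lower, beside 46.3%. With 4 genes, such counts say little beyond those shares. The part of these markers in the result was not tested.

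CXCL1, which also attracts neutrophils, had the highest mean level per kilobase of the members in WT Ctr, WT Sor and WNK2 trans Sor, while CCL2 was higher in WNK2 trans Ctr and CXCL8 in both WNK2- groups. Its levels were 1639.9, 2104, 1273 and 1351 in the libraries labelled WT Ctr and 873, 988, 888 and 953 in WT Sor. In the libraries labelled WNK2 trans Ctr they were 303, 289, 377 and 275, and in WNK2 trans Sor 3099.8, 2594, 2247 and 1936. The libraries labelled WNK2- Ctr had 413, 351, 384 and 385 and WNK2- Sor 486, 482, 497 and 492. In WT cells every Sor library was below every Ctr library, and in the cells labelled WNK2 trans every Sor library was above. The change with sorbitol was a fall of 0.78 in WT cells (edgeR adjusted p = 0.000203) and a rise of 2.99 in the cells labelled WNK2 trans (edgeR adjusted p = 2.67e-14), a 7.94-fold difference. In the WNK2- cells the 2 ranges did not overlap, but the difference of 0.35 (95% interval 0.06 to 0.64) did not pass the test (edgeR adjusted p = 0.0987). It did pass when the compared groups were fitted alone (edgeR adjusted p = 0.00372) and without the groups labelled WT Ctr and WNK2 trans Ctr (0.0430). CXCL1 was lower in the WNK2- cells in both media, 4.15-fold in isotonic media and 1.89-fold under sorbitol, unlike CXCL8.

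CXCL6, which shares the neutrophil receptors of CXCL8, was highest in the libraries labelled WT Ctr, at 808, 771, 709 and 729. It had 339.7, 422, 392 and 386 in WT Sor, 255, 229, 227 and 247 in WNK2 trans Ctr and 600.5, 412, 450.2 and 453 in WNK2 trans Sor. The WNK2- libraries were the lowest, with 155, 146, 127 and 186 in WNK2- Ctr and 94.9, 96.7, 117 and 76.7 in WNK2- Sor. Only the ranges of WNK2 trans Sor and WT Sor overlapped between neighbours in the order. CXCL6 fell with sorbitol by 0.97 in WT cells (edgeR adjusted p = 6.04e-06) and by 0.67 in WNK2- cells (edgeR adjusted p = 0.00124), and it rose by 1.00 in the cells labelled WNK2 trans (edgeR adjusted p = 8.1e-07). It was 4.91-fold lower in WNK2- Ctr than in WT Ctr and 3.99-fold lower in WNK2- Sor than in WT Sor. Between WNK2 trans Sor and WT Sor the difference of 0.31 (95% interval 0.05 to 0.58) did not pass (edgeR adjusted p = 0.0629). It did pass with DESeq2 (adjusted p = 0.0380), with upper-quartile factors (edgeR adjusted p = 0.0424) and without WNK2 trans Sor replicate 2 (edgeR adjusted p = 0.0444). Without WNK2 trans Sor replicate 1 the difference was 0.17 (edgeR adjusted p = 0.287), and over the other alternatives the adjusted p reached 0.499.

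CXCL2 and CXCL3, both CXCR2 ligands, were counted much less. CXCL2 was 99.1 ± 21.9 and 109 ± 16.4 in the libraries labelled WT Ctr and WT Sor, 103 ± 18.3 and 107 ± 27.8 in WNK2 trans Ctr and WNK2 trans Sor, and 33.8 ± 5.39 and 37.9 ± 8.61 in WNK2- Ctr and WNK2- Sor. The 4 WT and WNK2 trans groups overlapped each other, and both WNK2- groups lay wholly below them. CXCL2 was the tested member that passed in none of the sorbitol comparisons: the differences were 0.14 (95% interval -0.28 to 0.57) in WT cells, 0.16 (-0.32 to 0.63) in WNK2- cells and 0.054 (-0.37 to 0.47) in the cells labelled WNK2 trans. Those intervals lie below the estimates for CXCL8 and CXCL1 in the cells labelled WNK2 trans. CXCL2 was 2.91-fold lower in WNK2- Ctr than in WT Ctr and 2.89-fold lower in WNK2- Sor than in WT Sor, a nearly equal deficit in both media. Its promoter carries the same capitals as that of CXCL1.

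CXCL3 was highest in the libraries labelled WNK2 trans Sor, at 162, 117, 81.4 and 82.6, above every other library. It had 13.7, 35.2, 42.7 and 42.5 in WNK2 trans Ctr, and the rise of 1.71 passed the test (edgeR adjusted p = 9.14e-05). The libraries labelled WT Ctr and WT Sor overlapped, with 54.3 ± 18.6 and 47.2 ± 11.4, as did WNK2- Ctr and WNK2- Sor, with 12.6 ± 4.55 and 19.7 ± 5.11. Raw counts were as low as 8, so that a change with sorbitol of the size seen for CXCL1 in WT cells lies within the 95% interval of CXCL3 there (-0.85 to 0.46). CXCL3 was lower in the WNK2- cells in both media (edgeR adjusted p = 4.27e-05 and 0.00356).

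CXCL5, another CXCR2 ligand, had raw counts of 1, 0, 2 and 3 in the libraries labelled WT Ctr, 4, 3, 4 and 3 in WT Sor, and 2, 8, 6 and 5 in WNK2 trans Sor. It had 0 in all 4 libraries labelled WNK2- Ctr and 1, 1, 0 and 3 in WNK2- Sor. When no filter was applied beyond 1 count in all, WNK2- Ctr differed from WT Ctr (edgeR adjusted p = 0.0358), and no fold is given because both groups were at or near 0.

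CCL2, the monocyte attractant MCP-1, had the largest difference between genotypes of the tested members in isotonic media. Its levels were 844, 971, 800.5 and 686 in the libraries labelled WT Ctr and 834, 912, 957 and 872 in WT Sor, which overlapped. In the libraries labelled WNK2- Ctr they were 122, 161, 138 and 120.0, and in WNK2- Sor 542, 393, 566 and 469. The libraries labelled WNK2 trans Ctr had 527, 592, 693 and 491 and WNK2 trans Sor 2217, 1648, 1725 and 1766. CCL2 was 6.11-fold lower in WNK2- Ctr than in WT Ctr (log2 difference -2.61, standard error 0.14, edgeR adjusted p = 3.1e-13) and 1.81-fold lower in WNK2- Sor than in WT Sor (edgeR adjusted p = 7.42e-06). With sorbitol it rose by 1.86 in the WNK2- cells and by 1.67 in the cells labelled WNK2 trans (edgeR adjusted p = 7.11e-10 and 1.84e-10). In WT cells the difference was 0.11 (95% interval -0.16 to 0.38, edgeR adjusted p = 0.569). In isotonic media CCL2 was lower in the libraries labelled WNK2 trans Ctr than in WT Ctr by 0.52 (edgeR adjusted p = 0.00911), although the ranges overlapped. That call was lost without WNK2 trans Ctr replicate 4 (-0.44, edgeR adjusted p = 0.0513), with those groups fitted alone (0.0659) and when a change of more than 0.3 was required (0.184).

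CCL7, which shares the monocyte receptor CCR2 and lies next to CCL2, had raw counts of 11, 0, 11 and 6 in the libraries labelled WT Ctr and 5, 7, 7 and 8 in WT Sor. It had 0 in all WNK2- Ctr libraries and 1, 0, 0 and 0 in WNK2- Sor. In the fit without a filter it passed in both media (edgeR adjusted p = 0.000203 in isotonic media and 0.00103 under sorbitol), lower in the WNK2- cells like CCL2.

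CCL20, the ligand of CCR6, had raw counts of 0 in all libraries labelled WT Ctr and WNK2 trans Ctr. It had 3, 6, 0 and 6 in WNK2- Ctr and 3, 8, 4 and 10 in WNK2- Sor, against 2, 0, 2 and 0 in WT Sor. One WNK2 trans Sor library had 13 and the other 3 had 0, 0 and 2. In the fit without a filter it was higher in WNK2- Ctr than in WT Ctr (edgeR adjusted p = 0.0353), where 6 tested members were lower, and higher in WNK2 trans Sor than in WNK2 trans Ctr (edgeR adjusted p = 0.0220), a call in which 13 of the 15 counts came from 1 library.

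CXCL12, the homeostatic stromal chemokine, differed in the direction opposite to CXCL8 in each of the 5 comparisons in which both passed, which share libraries. Its levels were 62.7, 62.8, 51.9 and 65.0 in the libraries labelled WT Ctr and 75.1, 76.5, 70.0 and 74.5 in WT Sor. They were 179, 152, 152 and 113 in WNK2 trans Ctr, the highest of all libraries, and 42.1, 36.1, 47.6 and 24.8 in WNK2 trans Sor. In the libraries labelled WNK2- Ctr they were 59.7, 67.5, 64.7 and 58.3, which overlapped WT Ctr, and in WNK2- Sor 26.6, 20.8, 27.0 and 22.4. With sorbitol CXCL12 fell by 1.36 in the WNK2- cells and by 1.99 in the cells labelled WNK2 trans (edgeR adjusted p = 9.93e-06 and 1.84e-09). In WT cells the ranges of Ctr and Sor did not overlap, but the difference of 0.29 (95% interval -0.08 to 0.66) did not pass (edgeR adjusted p = 0.250). It was 3.04-fold lower in WNK2- Sor than in WT Sor and 2.45-fold higher in WNK2 trans Ctr than in WT Ctr. The summed level of 7 fibroblast markers moved with it under sorbitol in both modified backgrounds: 5545 to 6727 CPM in WNK2 trans Ctr, 1113 to 1878 in WNK2 trans Sor and, in the deletion cells, 2677 to 3026 without and 968 to 1167 with sorbitol, with THY1 at 0 throughout. In WNK2- Ctr against WT Ctr, where 42.1% of all genes passed, they did not move together: 4 of 5 tested markers were lower (median -2.12, COL3A1 -2.12), while CXCL12 differed by 0.047. That contrast depends on the label WT Ctr. Set beside WNK2 trans Ctr in its place, which was not tested, CXCL12 (62.5 against 149) and the marker sum were both lower in WNK2- Ctr. The part of the fibroblast markers in the result was not tested.

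With the groups as labelled, the response to sorbitol differed between backgrounds for most tested members. Against WT cells, the interaction with genotype passed for 4 of 7 members, beside 8.65% of all tested genes. CXCL8 (1.80, standard error 0.18), CCL2 (1.75, 0.19) and CXCL1 (1.13, 0.20) responded more positively in the WNK2- cells and CXCL12 (-1.65, 0.26) more negatively, with edgeR adjusted p = 2.77e-07, 1.08e-06, 0.000513 and 0.000155. CXCL6, which fell in both backgrounds, had an interaction of 0.30 (95% interval -0.09 to 0.69), and CXCL3 0.84 (-0.18 to 1.85). The interaction with the transfection label passed for 6 of 7, beside 35.5% of all genes. It was 4.99 for CXCL8 (standard error 0.19, edgeR adjusted p = 5.77e-16), 3.77 for CXCL1 (0.20), 1.97 for CXCL6 (0.18), 1.90 for CXCL3 (0.45), 1.56 for CCL2 (0.19) and -2.28 for CXCL12 (0.25). CXCL2 had -0.089 (95% interval -0.69 to 0.51), and 0.013 (-0.61 to 0.63) in the interaction with genotype. Both interactions take the WT response from the libraries labelled WT Ctr, whose WNK2 counts lay far above those of WT Sor. That with the transfection label also rests on WNK2 trans Ctr, whose WNK2 counts go against its label. With these isotonic groups exchanged, which was not tested, CXCL8 was higher both in WT Sor (641 against 260.3) and in WNK2 trans Sor (3608 against 1472.5). So was CXCL1 (925 against 311, and 2469 against 1592 with overlapping ranges). CXCL6 was then higher in WT Sor (385 against 240) and lower in WNK2 trans Sor (479 against 754), the reverse of its directions as labelled. CXCL12 was lower in both (74.0 against 149, and 37.6 against 60.6). CCL2 was higher in both (894 against 576, and 1839 against 825). So was CXCL3 (47.2 against 33.5 with overlapping ranges, and 111 against 54.3). The sizes of all 6 interactions with the transfection label, and the directions of the changes behind them, thus depend on those labels.

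The genes around the chromosome 4 cluster were followed to see whether the stretch moved as a block. Within 1 Mb of the cluster 7 other genes were tested. Of all tested genes 42.1% passed in WNK2- Ctr against WT Ctr. With sorbitol 48% passed in the cells labelled WNK2 trans and 14.9% in the WNK2- cells. In WNK2- Ctr against WT Ctr, where all 5 tested ELR genes were lower, 2 of the 7 were higher (COX18, a cytochrome oxidase assembly factor, and AREG, the EGF receptor ligand amphiregulin), 0 were lower and their median was 0.24. Of these genes COX18, AREG and EREG were picked out after their values were seen. RASSF6, the nearest tested gene before CXCL8, differed by 0.24 (standard error 0.67), and MTHFD2L, a mitochondrial folate enzyme and the nearest after CXCL2, by 0.23 (0.13). With sorbitol in the cells labelled WNK2 trans, 6 of the 7 rose and 0 fell, with a median of 0.91, and RASSF6 rose by 4.49 (standard error 0.90, edgeR adjusted p = 0.000226). In the WNK2- cells 3 of 7 rose with sorbitol, EREG (epiregulin) by 1.59 and AREG by 1.26, while CXCL6 in the middle of the stretch fell. On chromosome 17 the nearest tested neighbour of CCL2 and CCL7 was CCL11, the eosinophil attractant eotaxin. It had 61 to 83 raw counts per library in WT Ctr, 0 in all 4 WNK2- Ctr libraries and 0 to 1 in WNK2- Sor, and of 10 tested genes there 1 was higher and 4 were lower in WNK2- Ctr than in WT Ctr. Around CXCL12 (14 genes) and CCL20 (8 genes) the counts were 2 higher and 1 lower, and 1 higher and 1 lower.

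**Figure D3:**
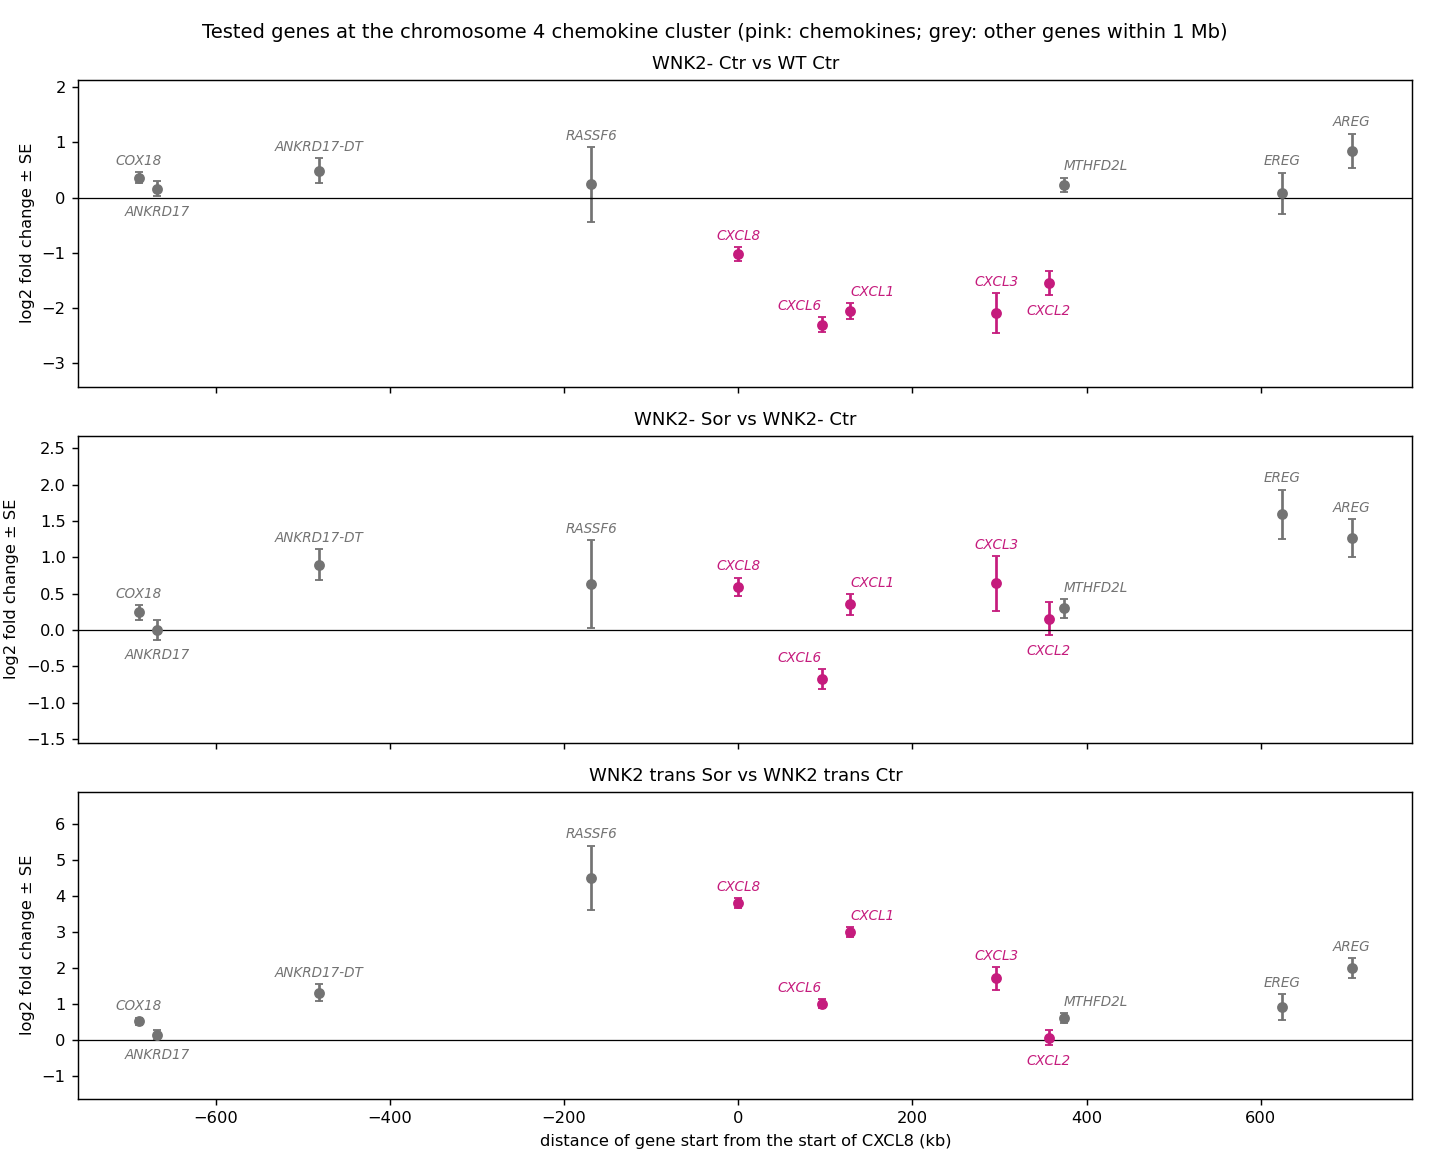
Log2 fold change ± standard error (vertical axis) of the tested genes within 1 Mb of the chromosome 4 chemokine cluster against the distance of the gene's start from that of CXCL8 in kb (horizontal axis), for 3 comparisons; chemokine genes are pink and other genes grey. The chemokine genes lay between -2.30 and -1.01 in WNK2- Ctr against WT Ctr, where the other genes lay above 0, and CXCL2 stayed near 0 in the cells labelled WNK2 trans, where CXCL8 and RASSF6 were highest.

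Of 36 other chemokine ligands 6 were tested. The interferon-type CXCL9, CXCL10, CXCL11 and CCL5 were listed at 0 in every library, which does not show that they are silent. For the lists from here on, 42.1% of all tested genes passed in WNK2- Ctr against WT Ctr. With sorbitol 24.1% passed in WT cells, 14.9% in WNK2- cells and 48% in the cells labelled WNK2 trans. In WNK2- Ctr against WT Ctr 1 of the 6 was higher, CCL26 (2.53, edgeR adjusted p = 0.00025), an eosinophil attractant, and 3 were lower: CXCL16, a transmembrane chemokine, by 2.12, CCL28, a mucosal chemokine, by 1.21, and CCL11. CXCL16 fell with sorbitol in WT cells (-0.88) and in the cells labelled WNK2 trans (-0.95). Of 23 chemokine receptors 5 were tested. CXCR1, CXCR2 and CXCR4, the receptors of the ELR chemokines and of CXCL12, had at most 2, 6 and 8 raw counts. CCRL2, an atypical receptor that binds chemerin, was counted 0 to 4 times in WT Ctr and 37 to 67 times in WNK2- Ctr, and rose from there by 2.42 with sorbitol (edgeR adjusted p = 3.4e-08) to 234 to 392 counts.

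The cytokines that induce chemokines did not all move with them. Of 20 tested inducing cytokines and receptors, 4 were higher and 7 lower in WNK2- Ctr than in WT Ctr. IL1B, the classical inducer, was 2.43 higher there (edgeR adjusted p = 1.2e-11), with 706 ± 28.2 against 131 ± 32.4 normalized counts, while 6 of 7 tested members were lower. Among the receptor genes TLR2 was 2.07 lower and IL6R 1.90 higher in the same comparison. IL1B rose with sorbitol in all 3 backgrounds, by 0.76 in WT cells, by 1.86 in WNK2- cells and by 3.76 in the cells labelled WNK2 trans. Its receptor IL1R1 was 2.90 lower in WNK2- Sor than in WT Sor (edgeR adjusted p = 7.5e-11). IL1R1 rose by 1.20 with sorbitol in WT cells, and its interaction with genotype was -1.52. CSF3, the neutrophil growth factor G-CSF, was 255 ± 77.7 in WT Ctr and 19.6 ± 3.86 in WNK2- Ctr, a difference of -3.69 in the same direction as CXCL1, and it rose by 4.45 with sorbitol in the cells labelled WNK2 trans. There 9 of the 20 genes rose and 8 fell, with CSF2, the granulocyte-macrophage growth factor, at 5.72 and IL1A at 2.47. The part of these genes in the chemokine differences was not tested.

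Among 15 tested NF-kB subunits and feedback genes, 2 were higher and 9 lower in WNK2- Ctr than in WT Ctr, where 42.1% of all tested genes passed. The lower ones included NFKBIZ (-2.09, edgeR adjusted p = 1.9e-15), a nuclear coactivator, BCL3 (-1.41), the subunit gene RELB (-1.25) and TNFAIP3 (-1.25), the feedback inhibitor A20. With sorbitol in WNK2- cells 2 rose and 1 fell, TNFAIP3 by 1.30 and NFKBIZ by 0.64 rising and BCL3 falling by 0.63. In the cells labelled WNK2 trans 3 rose and 1 fell, so that 4 of the 15 passed beside 48% of all tested genes. There NFKBIZ rose by 1.28 and BCL3 fell by 1.44. In WT cells, where CXCL8, CXCL1 and CXCL6 fell, NFKBIZ (0.41) and TNFAIP3 (0.36) rose with sorbitol and NFKB1 (-0.27) fell.

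Of 8 tested AP-1, C/EBP and ATF factors, 3 were higher and 2 lower in WNK2- Ctr, with FOSL1 at 1.65 and FOS at -2.11. In the cells labelled WNK2 trans 4 rose with sorbitol, FOSL1 by 1.71 and JUN by 1.20 among them, and CEBPD fell by 2.78. JUNB was listed at 0 in every library, so a listed 0 does not show that a gene is silent. Of 7 factors that act on AU-rich mRNA, 2 rose and 3 fell there, with ZFP36, the decay factor tristetraprolin, falling by 1.24. In WT cells ZFP36 rose with sorbitol by 0.95 (edgeR adjusted p = 0.013), where CXCL8 and CXCL1 fell, and of the 7 factors 2 rose and 1 fell. ZFP36 was also 1.68 lower in WNK2- Sor than in WT Sor, where 6 of 7 tested members were lower too. In WNK2- cells 0 rose and 1 fell with sorbitol, HNRNPD by 0.46. ZC3H12A, another of the 7, rose by 0.70 with sorbitol in the cells labelled WNK2 trans. It was 1.26 lower in WNK2- Ctr than in WT Ctr. The part of these factors in the chemokine differences was not tested. Of 6 tested tonicity genes 3 rose and 1 fell with sorbitol in WT cells, and 2 rose and 0 fell in WNK2- cells. In the cells labelled WNK2 trans 3 rose and 1 fell. Those that fell were HSPA4L in WT cells (by 0.45) and SLC6A6 in the cells labelled WNK2 trans (by 0.55). AKR1B1 rose in all 3 backgrounds, WT cells included, where none of the 7 tested members rose. The rise was 2.17 in WNK2- cells and 2.31 in the cells labelled WNK2 trans. The betaine transporter gene SLC6A12 rose by 2.28 in WT cells and by 2.02 in WNK2- cells, while its difference of 0.55 in the cells labelled WNK2 trans did not pass (edgeR adjusted p = 0.0663) and its interaction with the transfection label was -1.73 (edgeR adjusted p = 0.000515).

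**Figure D4:**
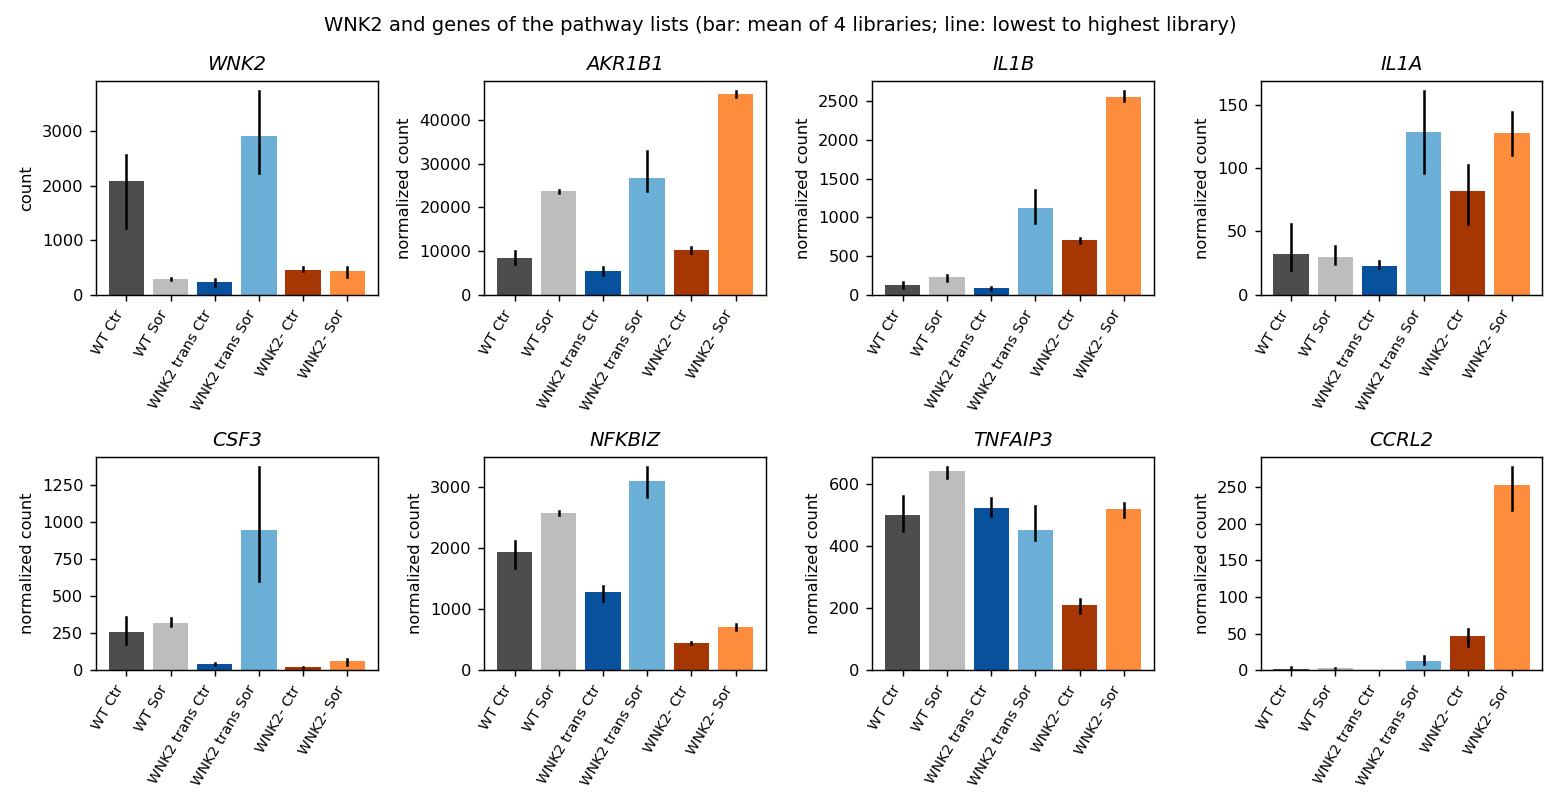
Counts of WNK2 (raw) and normalized counts of 7 genes from the tonicity, inducing cytokine, NF-kB and receptor lists (vertical axes) by labelled group; bars are means of 4 libraries and lines run from the lowest to the highest library. WNK2 was high in the groups labelled WT Ctr and WNK2 trans Sor, AKR1B1 was higher in each Sor group than in its Ctr group, and IL1B and CCRL2 were highest in WNK2- Sor.

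Genes with the most similar pattern were found by Pearson's r of log2 levels over the 24 libraries, which share group means, so that r mostly describes how the 6 groups were ordered. CXCL8 was nearest to HSD17B7 (r = 0.945), a cholesterol synthesis enzyme, INHBA (0.943), the activin A subunit, and ACO1 (0.931), which binds iron-responsive mRNA. CXCL1 was nearest to MSMO1 (0.933), also of cholesterol synthesis, CSF3 (0.923) and LAMP3 (0.914). CCL2 was nearest to ASAH1 (0.942), the acid ceramidase, PMAIP1 (0.941) and APOBEC3G (0.936). CXCL12 was nearest to TMCO3 (0.939), PDGFRB (0.938), the stromal PDGF receptor, and COL4A1 (0.932). CCL20, from its few counts, was nearest to IL10RA (0.839), ADCK1 (0.814) and MAST2 (0.787).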

How the data were processed

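Poly(A)-selected RNA of 24 cultures was sequenced. The authors deposited raw read counts per gene, which per the submitters' notes come from HISAT2 2.2.1, GRCh38 and HTSeq 2.0.2; the strand setting and annotation release are not given in the sources used here. Here edgeR 4.0.16 in R 4.3.3 kept 16600 genes (filterByExpr, minimum count 10, minimum total 15), scaled them by TMM and fitted 6 group means to all 24 libraries. The 7 contrasts and 2 interactions were adjusted by Benjamini-Hochberg over all tested genes. Each standard error was taken as |log2 fold change|/√F. Normalized counts were scaled to a mean effective size of 18363858.1. The analysis was tested, for some of the comparisons, on counts simulated with the fitted spread of these data. Such counts cannot check the labels or a spread that the fit misses. Replicates differed by more than sampling noise (chi-square per degree of freedom 2.24 to 60.8 over 36 pairs). Correlations used log2 CPM with a pseudocount of 0.5, where the mean log2 CPM was 1 or more. Symbols were matched for 62625 identifiers, positions (GENCODE 29) for 58279, and shared stretches were exact 50-base matches. From each gene list the text names at most 4 called genes by size of change (mean log2 CPM 0 or more), and of the genes near the members the nearest on each side. Single cell type markers were named after their values were seen. Members and lists were chosen with earlier results of these data known. DESeq2 1.42.0, RLE and upper-quartile factors, 2 other filters, the compared groups alone, a replicate block, a minimum change of 0.3, leaving out the groups labelled WT Ctr and WNK2 trans Ctr, and each library left out in turn were the alternatives.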

Additional observations from a re-analysis of the deposited data

Results flagged for a closer look

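Dixon's gap-to-range ratio was computed for the 4 log2 levels of each of the 7 tested chemokine genes in each of 6 groups, 42 groups in all, against the 95% critical value. Chance passes about 1 group in 20. CXCL12 in the libraries labelled WT Ctr passed, with a ratio of 0.835, because replicate 3 was lower than the other 3 libraries. Without it the difference of CXCL12 between WNK2- Ctr and WT Ctr was -0.014 in place of 0.047, and neither value passed the test.

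The response to sorbitol differed between WNK2- and WT cells by the interaction term of the edgeR fit for CXCL8 (1.80), CCL2 (1.75), CXCL1 (1.13) and CXCL12 (-1.65). Between the cells labelled WNK2 trans and WT it differed for CXCL8 (4.99), CXCL1 (3.77), CXCL6 (1.97), CXCL3 (1.90), CCL2 (1.56) and CXCL12 (-2.28). These are log2 differences between 2 log2 fold changes. Those with the transfection label rest on the labels WT Ctr and WNK2 trans Ctr, and those with genotype on WT Ctr. For CCL2 both interactions were of similar size, while for CXCL8 and CXCL1 that with the transfection label was larger; the difference between the 2 interactions was not tested.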

How the results depend on the processing

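The number of tested chemokine genes that passed stayed within 1.5 times of its value in all 9 comparisons under every alternative run, with 0 to 3 genes gained or lost. Over all tested genes, requiring a change of more than 0.3 lowered the calls from 4008 to 1421 in WT Sor against WT Ctr, from 6996 to 4378 in WNK2- Ctr against WT Ctr, from 2082 to 804 and from 5254 to 2642 in WNK2 trans against WT in isotonic media and under sorbitol, from 2473 to 1018 and from 7972 to 5310 with sorbitol in the WNK2- and WNK2 trans cells, and from 1436 to 522 in the interaction with genotype. With the compared groups alone WNK2 trans Ctr against WT Ctr gave 747 and WNK2- Sor against WNK2- Ctr 4824. The interaction with genotype gave 944 without WNK2- Ctr replicate 2 and 849 without WNK2- Sor replicate 3. Without WT Ctr replicate 2 it gave 1012, and WT Sor against WT Ctr gave 2761. That library had 17619 genes with a count, against 19518 to 20120 in the rest of its group. The replicate block changed no call of a member. Same-numbered libraries deviated together little (median r = 0.029, from -0.42 to 0.62 over 60 pairs, 14 of them above 0.1), so the numbers do not pair them. Of the single values, 3 calls were lost and 4 gained under the alternatives other than leaving out a library, and 1 was lost and 1 gained when a library was left out; all are given with the gene. The values that changed sign belonged to genes that did not pass. CXCL2 in WNK2 trans Sor against WT Sor became 0.0049 with upper-quartile factors, and its interaction with genotype -0.037 without a filter. With each library left out in turn, CXCL2 ranged from -0.064 to 0.17 in WNK2 trans Ctr against WT Ctr, from -0.16 to 0.077 in WNK2 trans Sor against WT Sor, from -0.069 to 0.16 in WNK2 trans Sor against WNK2 trans Ctr, from -0.13 to 0.13 in the interaction with genotype and from -0.22 to 0.024 in that with transfection. CXCL3 ranged from -0.36 to 0.0078 in WT Sor against WT Ctr, and CXCL12 from -0.014 to 0.085 in WNK2- Ctr against WT Ctr. With at least 10 counts in every library CXCL3 was not tested. CXCL5, CCL7 and CCL20 had at most 13 counts in a library, and no interval was computed for them.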
